A study of Mus musculus with 4 samples.

Results

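Liver sinusoidal endothelial cells (LSEC) were followed in single-cell RNA sequencing libraries of mouse liver. The cells were chosen by their measured UMI counts (UMIs are distinct RNA molecules), so the genes of that choice are described below and not tested. Barcodes were kept when 500 or more genes were detected and mitochondrial genes held 20% of UMIs or less. It was taken as an LSEC when Ptprb and Kdr, which are endothelial receptor genes, together had at least 2 UMIs, and when the sinusoidal genes Stab2, Clec4g, Oit3 and F8 together had at least 3. It also had at most 1 UMI of the large-vessel gene Vwf, 0 UMIs of Cd3d, Cd3e, Cd3g, Cd79a and Cd79b, at most 5 of the macrophage genes C1qa, C1qb and C1qc, and fewer than 100 of Hbb-bs and Hba-a1. This gave 4973 LSEC among 31290 kept cells in 4 libraries.

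All mice were male C57BL/6J, 5 weeks old at purchase, and were acclimated for 1 week. The normal chow diet group (NCD) had 1 library. The high-fat diet group (HFD) had 2 libraries from mice fed a 60% high-fat diet for 14 weeks and then through an 8-week intervention. The JQF group had 1 library from mice on the same diet that received Jiangtang Qingre Formula, a multi-herb preparation, by mouth on each day of those 8 weeks, while NCD and HFD mice were given distilled water by mouth. Per the methods each library came from 1 perfused and enzyme-digested liver, with no sorting for a cell type named. The cell type terms in the sample labels, immune cell and hematopoietic stem cell, do not name the endothelial cells described here.

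LSEC line the liver sinusoids, and their pores and lack of a continuous basement membrane let plasma reach the hepatocytes. They take up waste molecules through scavenger receptors, present antigen to passing lymphocytes, and signal to their neighbours with Wnt and BMP ligands. Cells near the central vein differ in gene expression from cells near the portal tract. In fatty liver disease, LSEC are known to lose pores and to gain capillary features, which is called capillarization.

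NCD gave 3451 LSEC, HFD replicate 1 gave 64, HFD replicate 2 gave 988 and JQF gave 470. As shares of kept cells these were 57.8% (exact 95% interval 56.5 to 59.0), 0.982% (0.757 to 1.25), 9.63% (9.07 to 10.2) and 5.50% (5.03 to 6.01), in that order. The NCD share lay above the other 3, and JQF lay between the HFD libraries. The intervals cover counting error only, and the HFD libraries, which are replicates, differed far beyond them. A stricter rule, with at least 6 sinusoidal UMIs and 0 UMIs of C1q genes and of the leukocyte gene Ptprc, gave 46.1%, 0.752%, 4.73% and 4.20%. The shares were not tested, because an exact permutation of 2 libraries against 1 cannot give a p below 0.333. They are shares of a digested suspension, and how many LSEC the livers held was not measured.

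**Figure D1:**
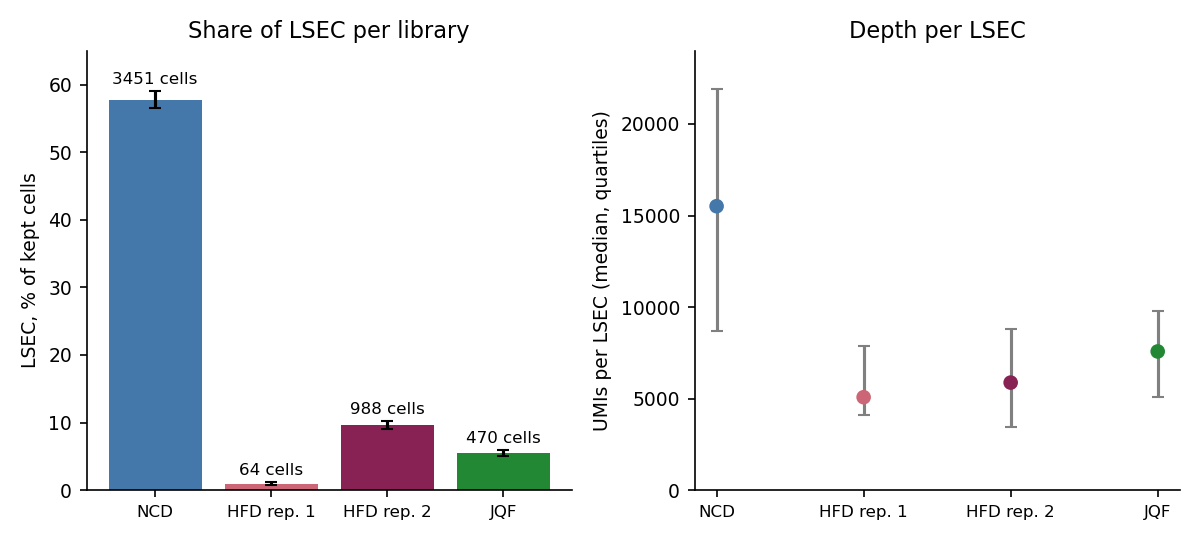
Left, LSEC as a percentage of kept cells in each library, with exact 95% intervals as error bars and the number of LSEC above each bar. Right, UMIs per LSEC, with the median as a point and the quartiles as bars. NCD stands apart in both, at 57.8% of kept cells and a median of 15509 UMIs per LSEC, while the other 3 libraries lie at 0.982% to 9.63% and at medians of 5077 to 7577 UMIs.

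The libraries differed in depth and RNA makeup before any gene was compared. NCD LSEC had a median of 15509 UMIs per cell against 5077 and 5876 in HFD replicates 1 and 2 and 7577 in JQF. Their summed counts were 58294879, 403045, 6861426 and 3792606 UMIs, so HFD replicate 1 is the shallow library of the comparison. Gm42418, whose locus overlaps ribosomal RNA, held 7.12%, 4.82%, 2.45% and 1.88% of LSEC UMIs, ribosomal protein genes 3.97%, 6.65%, 8.11% and 8.41%, and mitochondrial genes 2.58%, 4.94%, 4.35% and 4.04%. Genes spanning over 100000 bases held 27.1%, 22.4%, 22.3% and 20.5%. UMIs outside called cells were 10.5%, 6.68%, 7.74% and 7.20% of each library. Pairs of libraries shared 12 to 27 kept barcodes, and 0 of these were LSEC in both libraries of a pair.

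Cells near the thresholds were counted. Those with exactly 3 sinusoidal UMIs, just inside, numbered 49, 1, 17 and 2 in NCD, HFD replicate 1, HFD replicate 2 and JQF, and those with 2, just outside, numbered 36, 0, 10 and 2. The Vwf limit kept 54, 3, 51 and 7 cells with 1 UMI and left out 26, 3, 21 and 9 with 2 UMIs. The C1q limit left out 3, 1, 4 and 0 cells with 6 to 10 UMIs and kept 353, 11, 421 and 72 with 1 to 5, which is 421 of 988 LSEC in HFD replicate 2 against 353 of 3451 in NCD, and the Cd3 limit left out 136, 3, 60 and 38 cells. The choosing genes themselves, in CPM (counts scaled to a common total of UMIs in the summed LSEC), had these levels, in the same order of libraries: 3150.1, 1878, 1769 and 1922 for Stab2, 1462, 1221, 1781 and 2558 for Clec4g, 582, 695, 830.3 and 864 for Oit3, 1549, 858, 847 and 839 for F8, 1924, 809, 1142 and 1400.4 for Kdr and 3974, 3372, 3325 and 3498 for Ptprb. All later strings of 4 levels are CPM in this order, NCD, HFD replicate 1, HFD replicate 2 and JQF.

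The label LSEC was checked with genes that did not choose the cells. The 15 identity and scavenger genes summed to 13583, 11081, 11992 and 13480 CPM in LSEC, against 3795, 592, 1427 and 561 CPM in the other kept cells. All 15 were detected in NCD, HFD replicate 2 and JQF, and 14 in HFD replicate 1. The 18 pan-endothelial genes summed to 6455, 8371, 7876 and 8320 CPM in LSEC and to 2077, 248, 458 and 345 CPM elsewhere. With ribosomal, mitochondrial and abundant nuclear RNA set aside, the top gene in every library was Selenop, the selenium carrier, at 7249.7, 4511, 6855 and 7895. In NCD, Camk1d, a kinase gene, followed at 6918 CPM, against 1796, 952 and 952 in the other libraries. Camk1d stayed in this ranking, but the alternative analysis without ribosomal, mitochondrial and nuclear RNA left it out together with Gm42418. Both were highest in NCD, and whether the Camk1d UMIs come from kinase mRNA was not tested.

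Markers of other cell types differed in level between the libraries' LSEC. The 11 macrophage markers summed to 109, 174, 652 and 542 CPM, against 1817, 4596, 8616 and 3424 CPM in the other kept cells, and 5 of them were at 0 in HFD replicate 1. The 12 T and NK cell markers summed to 47.3, 117, 95.2 and 44.3 CPM, against 2966, 4651, 3522 and 3357 CPM elsewhere, and Cd3d, Cd3e and Cd3g, which are not among the 12, were at 0 by the rule. The 10 stellate cell and fibroblast markers summed to 144, 12.4, 31.9 and 237 CPM, against 65.6, 23.8, 54.8 and 108 CPM elsewhere, so in NCD and JQF they were higher in LSEC than in the other kept cells. The 13 hepatocyte markers summed to 405, 347, 425 and 612 CPM, against 2323, 1833, 1886 and 1305 CPM elsewhere. For B cells the 7 markers gave 9.81, 24.8, 61.4 and 65.7, for neutrophils the 6 markers gave 38.2, 19.8, 124 and 106, and for epithelial cells the 7 markers gave 6.84, 2.48, 68.4 and 102 CPM, each below its level elsewhere in every library. For large-vessel and lymphatic endothelium the 14 markers, without Vwf, gave 651, 1035, 1043 and 1050 CPM, against 456, 724, 346 and 1650.1 CPM elsewhere, so only in JQF were they lower in LSEC. These levels stand beside the results below, and their part in them was not tested. A value without a library, where given, changes depth and animal along with these levels and does not test that part.

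Counts were summed over the LSEC of each library and 13483 genes were tested with edgeR. HFD differed from NCD in 1819 genes at an adjusted p under 0.05, which is 13.5% of those tested, with 731 higher (5.42%) and 1088 lower (8.07%). JQF differed from HFD in 182 genes (1.35%), with 87 higher (0.645%) and 95 lower (0.705%). NCD and JQF had no replicates, so the spread was estimated from the HFD pair with 1 residual degree of freedom, and single genes had no spread of their own. The adjusted p-values below therefore rest on NCD and JQF varying as the HFD libraries did. With library totals in place of TMM as the scale, the all-gene median log2 fold change in HFD vs NCD went from -0.02 to 0.16, a shift of 0.18, and changed the split from 731 higher and 1088 lower (40.2% higher) to 1134 higher and 787 lower (59.0% higher). Of 74 named calls in HFD vs NCD, 32 kept direction and call in every alternative analysis that tested them, and of 31 in JQF vs HFD, 0 did. DESeq2 lost 26 of the 74 and 21 of the 31, and a fit that added T cells and left out the LSEC of HFD replicate 1 lost 29 and 31. Leaving out 1 HFD library moved the fold of 20 of the 74 and 4 of the 31 by over 1.5 times, and these are given with their values, except 3 genes with 0 UMIs in HFD replicate 1. Alternatives were followed gene by gene only for these 74 and 31 calls. Those that missed the threshold in at least 2 alternatives are named beside their results. Calls lost in only 1 alternative often carry no remark. In HFD vs NCD these include Lyve1, Ehd3, Cldn5, Bmp2, Bmp6, Nrp1, Cxcl10, Il1a and Ifih1. Other called genes given by value, such as Scarb1, Fli1 and Thbd, were not followed, so a missing remark does not mean stability.

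The direction of the calls went with gene length. Of the 3368 tested genes in the longest of 4 equal classes by genomic span, 139 were higher and 467 lower in HFD, with a median log2 fold change of -0.21. Of the 3368 in the shortest class, 310 were higher and 155 lower, with a median of 0.20. The share of UMIs on genes over 100000 bases fell in the same direction in T cells of these libraries, from 23.1% in NCD to 16.4% and 15.7% in HFD and 15.8% in JQF. Its part in the calls was not tested.

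**Figure D2:**
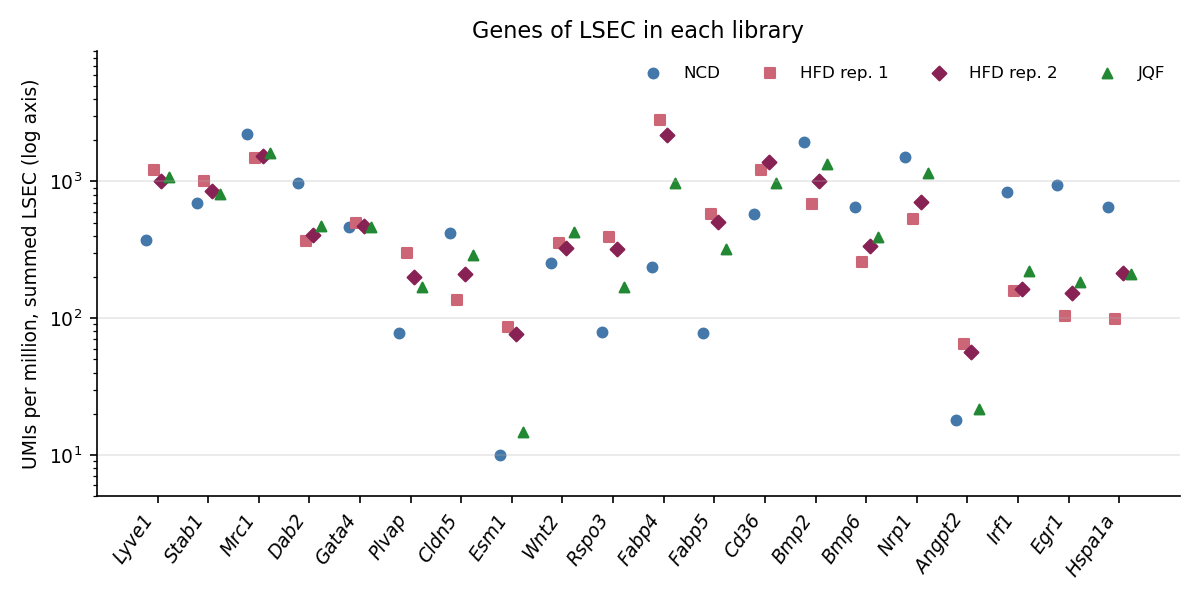
CPM of 20 genes in the summed LSEC of each library, on a log axis, with 1 point per library. Both HFD points lie above NCD for Fabp4, Fabp5, Rspo3, Esm1 and Plvap and below it for Dab2, Bmp2, Bmp6, Nrp1, Irf1, Egr1 and Hspa1a, and Gata4 stays between 462 and 499 in all 4 libraries.

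Of the 15 identity and scavenger genes, 1 rose and 4 fell in HFD, where 5.42% of all genes were higher and 8.07% lower. A single riser is near the share over all genes. The median log2 fold change was -0.59 against -0.02 for all genes. Lyve1, the hyaluronan receptor, was at 375, 1216, 1002 and 1068. Both HFD libraries and JQF were above NCD, and Lyve1 rose in HFD by 1.37 ± 0.27 (log2 fold change ± SE, edgeR, Benjamini-Hochberg adjusted p = 1.84e-05). After thinning each cell to 2000 UMIs, 35.5%, 78.3%, 66.4% and 63.5% of LSEC had a Lyve1 UMI, and at most 0.111% of T cells. These T cells were chosen without UMIs of the endothelial and sinusoidal genes of the rule, which can lower their share. Dab2, a clathrin adaptor of endocytosis, was at 978, 365, 405 and 471 and fell, with a log2 fold change of -1.52 ± 0.24 (adjusted p = 2.00e-08). Ehd3, which works in endosome recycling, was at 2084, 995, 1393 and 1635, a log2 fold change of -0.98 ± 0.26 (adjusted p = 0.00285). The mannose receptor Mrc1 was at 2229, 1491, 1523 and 1619 (-0.75 ± 0.27, adjusted p = 0.0384) and the HDL receptor Scarb1 at 148, 134, 92.7 and 125 (-0.66 ± 0.23, adjusted p = 0.0352). Mrc1 missed the threshold in 8 of the 13 alternative analyses in which it was tested. The stabilin Stab1, at 699, 1012, 843 and 811, the inhibitory Fc receptor Fcgr2b, at 1726, 999.9, 1469 and 1634, and Gpr182, at 607, 911, 976 and 979.5, did not pass. JQF differed from HFD in 0 of the 15, and 1.35% of all genes passed there, so a count of 0 says little about a list of this size.

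Of 18 endothelial junction and surface genes, 3 were higher and 2 lower in HFD, beside 5.42% and 8.07% of all genes, and the 2 lower genes are close to that share. Cldn5, the main claudin of endothelial tight junctions, was at 416, 136, 210.3 and 291, with both HFD libraries below NCD and JQF between (log2 fold change -1.37 ± 0.23, adjusted p = 1.77e-07). Calcrl, the receptor for adrenomedullin and CGRP, was at 835, 442, 487 and 462 (-1.03 ± 0.24, adjusted p = 4.73e-04). Plvap, which forms the diaphragms of capillary pores, was at 77.9, 298, 200.4 and 168, above NCD in both HFD libraries (1.43 ± 0.25, adjusted p = 3.51e-07). The sphingosine-1-phosphate receptor S1pr1 was at 111, 290.3, 258 and 225 (1.10 ± 0.24, adjusted p = 1.62e-04). Cd34 was at only 11.2, 49.6, 26.4 and 8.17, a rise of 1.36 ± 0.40 in HFD (adjusted p = 0.00855), and was lower in JQF than in HFD (-1.97 ± 0.47, adjusted p = 0.00471), the 1 gene of this list that passed there. Pecam1, at 536, 806, 805 and 775, and Cdh5, the VE-cadherin gene, at 498, 796, 745 and 592, did not pass. The Calcrl call was lost in 2 of 13 alternatives.

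Of 20 endothelial transcription factors, 1 rose, near the 5.42% of all genes that did, and 4 fell, beside 8.07% of all genes. Gata4, which is needed for the sinusoidal fate, was at 462, 499, 473 and 465 and Maf at 3230.0, 2709, 2782 and 3313, and neither passed. Tfec, a relative of the lysosomal regulator Tfeb, was at 104, 39.7, 38.3 and 49.3, with NCD above every other library (log2 fold change -1.60 ± 0.25, adjusted p = 1.02e-08). Meis1 was at 196, 127, 103 and 117 (-1.01 ± 0.23, adjusted p = 2.69e-04), Meis2 at 1317, 829, 860.0 and 756 (-0.83 ± 0.25, adjusted p = 0.0114), and the ETS factor Fli1 at 657, 444, 452 and 345 (-0.74 ± 0.24, adjusted p = 0.0211). Sox18 was at 161, 283, 356 and 343 and rose by 0.83 ± 0.24 (adjusted p = 0.00858). JQF differed from HFD in 0 of the 20, beside 1.35% of all genes. Sox18 missed the threshold in 4 of 13 alternatives, Meis2 in 3 of 13 and Meis1 in 2 of 13.

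UMIs of genes of both zones were found in every library. After thinning each cell to 2000 UMIs, 61.9% of 3166 NCD cells, 80% of 60 and 67.8% of 908 HFD cells and 79.0% of 452 JQF cells had a UMI of the pericentral genes Wnt2, Wnt9b, Rspo3, Kit and Thbd. For the periportal genes Ltbp4, Efnb2, Ntn4, Dll4 and Adgrg6 the shares were 71.6%, 78.3%, 79.4% and 79.9%. T cells thinned alike, which should lack these genes, gave 0 of 363 in NCD (exact 95% upper limit 1.01%) and 0.514%, 0.995% and 0.779% in the others for the pericentral set, and 3.86%, 0.823%, 0.498% and 1.27% for the periportal set. These T cells were chosen without any UMI of Ptprb, Kdr, Stab2, Clec4g, Oit3 and F8. Cells with stray endothelial RNA were thus partly left out, so T cell shares here and below may understate the background. Among LSEC, NCD had the lowest share of the 4 libraries for both sets. Without thinning the pericentral shares were 89.3%, 90.6%, 83.6% and 92.8%, and NCD was no longer lowest, while the periportal shares were 92.4%, 90.6%, 92.2% and 96.4%. Among thinned NCD cells, 67.4% (exact 95% interval 65.3 to 69.5) of cells with a pericentral UMI also had a periportal UMI, against 78.4% (75.9 to 80.7) of cells without. In HFD replicate 2 these were 76.6% (73.1 to 79.9) and 85.3% (80.7 to 89.1), and in JQF 77.3% (72.6 to 81.6) and 89.5% (81.5 to 94.8). The intervals did not overlap in NCD and in HFD replicate 2 and met at their ends in JQF. This direction depended on depth. At 4000 UMIs the shares with and without a pericentral UMI were 86.2% and 93.2% in NCD, 91.4% and 90.0% in HFD replicate 2 and 93.3% and 93.9% in JQF. Without thinning they turned to 94.6% and 73.5%, 92.7% and 89.5%, and 97.0% and 88.2%, so no direction is drawn from them. In HFD replicate 1, with 48 and 12 cells, the shares were 81.3% (67.4 to 91.1) and 66.7% (34.9 to 90.1), whose intervals overlap.

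Of 13 pericentral genes, 5 rose and 1 fell in HFD, and of 12 periportal genes, 4 rose and 1 fell, beside 5.42% of all genes higher and 8.07% lower. The single gene that fell on each list is near that share. Fabp4, the fatty acid binding protein of capillary endothelium (chromosome 3, 10204088 to 10208576, GRCm38), was at 237, 2809, 2188 and 968. Both HFD libraries were far above NCD and JQF lay between, which gave a log2 fold change of 3.20 ± 0.32 in HFD vs NCD (adjusted p = 3.22e-21) and -1.32 ± 0.29 in JQF vs HFD (adjusted p = 9.61e-04). When T cells were added to the fit and the LSEC of HFD replicate 1 left out, the adjusted p of Fabp4 became 0.0631 and 0.812. After thinning to 2000 UMIs, 23.9%, 91.7%, 84.5% and 60.6% of LSEC had a Fabp4 UMI, against 0.551%, 0.206%, 0.940% and 0.202% of T cells. Rspo3, a Wnt amplifier secreted near the central vein, was at 78.6, 392, 321 and 168 (HFD vs NCD 1.97 ± 0.26, adjusted p = 1.37e-12). It was lower in JQF than in HFD (-1.02 ± 0.25, adjusted p = 0.00628), but missed the threshold there in 4 of 13 alternatives, and the 3 highest cells held 62.7% of its UMIs in HFD replicate 1. Wnt2, at 254, 357, 327 and 426, Wnt9b, at 10.8, 12.4, 13.4 and 16.6, and Kit, at 272, 223, 197 and 223, did not pass in either comparison. The JQF vs HFD call of Fabp4 was lost in 2 of 13 alternatives.

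Thbd, the thrombin receptor thrombomodulin, was at 128, 228, 244 and 339.9 and rose in HFD by 0.70 ± 0.24 (adjusted p = 0.0312). The leukocyte tether P-selectin, Selp, was at 40.5, 114, 102 and 54.1, which was higher in HFD than in NCD (1.20 ± 0.25, adjusted p = 3.09e-05) and lower in JQF than in HFD (-0.94 ± 0.26, adjusted p = 0.0277), with 73.9% of the UMIs of HFD replicate 1 in 3 cells. Bmp4, the last riser, was at no more than 19.8 CPM. Dkk3 moved the other way, at 70.4, 32.3, 34.4 and 77.3, with log2 fold changes of -1.23 ± 0.26 in HFD vs NCD and 1.21 ± 0.27 in JQF vs HFD (adjusted p = 5.30e-05 and 0.00163). On the periportal list, the fatty acid translocase Cd36 was at 580.1, 1206, 1374 and 981 (0.97 ± 0.27, adjusted p = 0.00461). Efnb1, Jag1 and Lrg1 also rose, with log2 fold changes of 0.73, 1.21 and 1.28, and Efnb2, an arterial ephrin, fell by 0.71 ± 0.23 on that scale (adjusted p = 0.0186) from 168 to 86.8 and 131 CPM. Efnb2 missed the threshold in 7 of 13 alternatives (adjusted p = 0.509 with DESeq2), and its log2 fold change was -0.50 without HFD replicate 1 and -1.11 without HFD replicate 2. In JQF vs HFD, 1 pericentral gene was higher and 3 lower, beside 0.645% and 0.705% of all genes, and 0 periportal genes passed, near the share over all genes. In HFD vs NCD, Dkk3 and Selp each missed the threshold in 2 of 13 alternatives and Cd36 and Efnb1 in 2 of 13, and in JQF vs HFD Dkk3 and Selp did in 4 of 13.

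Among 21 angiocrine genes, which encode ligands of LSEC and their targets, 5 rose and 3 fell in HFD, beside 5.42% and 8.07% of all genes, and 2 were lower in JQF than in HFD, beside 0.705%. Bmp2 and Bmp6, the LSEC ligands that raise hepcidin in hepatocytes, were at 1952, 687, 1013 and 1328 and at 652, 258, 337 and 393. For both genes NCD was highest, JQF next and HFD replicate 1 lowest. On the log2 scale Bmp2 fell by 1.37 ± 0.26 (adjusted p = 3.63e-06) and Bmp6 fell by 1.29 ± 0.24 (adjusted p = 2.34e-06), and their JQF vs HFD differences did not pass, with log2 fold changes of 0.66 ± 0.26 and 0.40 ± 0.25. Tgfb1 was at 318, 221, 184 and 264 (-0.87 ± 0.23, adjusted p = 0.00305). Angpt2, which destabilizes vessels, was at 18, 64.5, 57 and 21.6, with both HFD libraries above the other 2 (HFD vs NCD 1.54 ± 0.31, adjusted p = 2.55e-05, and JQF vs HFD -1.43 ± 0.34, adjusted p = 0.00471). Angpt2 missed the threshold in 3 of 12 alternatives in HFD vs NCD (adjusted p = 0.203 with 64 cells in every library) and in 4 of 12 in JQF vs HFD, DESeq2 among them. The activin subunit gene Inhbb was at 137, 397, 311 and 395 and Smad6, an inhibitor of BMP signals, at 155, 323, 283 and 282, rises of 1.15 and 0.77. Edn1, endothelin, rose too and was at 0.995, 29.8, 13.7 and 7.38, which is 12 UMIs in HFD replicate 1. Rspo3, described above, was the fifth riser and, with Angpt2, 1 of the 2 genes lower in JQF. Hgf, at 284, 201, 276 and 258, did not pass.

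Of 15 VEGF, angiopoietin and Notch genes, 2 rose and 1 fell in HFD, beside 5.42% and 8.07% of all genes. Nrp1, the VEGF co-receptor, was at 1518, 531, 702 and 1154 and fell in HFD, with a log2 fold change of -1.47 ± 0.25 (adjusted p = 2.67e-07). JQF lay between, above both HFD libraries, at a log2 fold change of 0.92 ± 0.26 (adjusted p = 0.0298) that missed the threshold in 5 of 13 alternatives. The Notch receptor Notch4 was at 25.2, 67, 50.6 and 51.9 and the ligand Jag1 at 12.7, 49.6, 27.5 and 26.9, rises of 0.95 and 1.21. Kdr, the main VEGF receptor, was part of the choice of cells and its level was 1924, 809, 1142 and 1400.4. The Notch4 call was lost in 4 of 12 alternatives.

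Of 17 genes of flow response, vascular tone and coagulation, 5 rose and 2 fell in HFD, beside 5.42% and 8.07% of all genes, and the number that fell is near that share. Klf4, a flow-induced factor, was at 506, 218, 176 and 241 (-1.58 ± 0.24, adjusted p = 1.22e-09) and Klf6 at 241, 136, 194 and 181 (-0.67 ± 0.23, adjusted p = 0.0322), both lower in HFD. Klf2, the other flow-induced factor, did not pass at 1057, 1019.7, 986 and 744. The endothelin B receptor Ednrb was at 54.5, 124, 153 and 196 (1.21 ± 0.24, adjusted p = 1.77e-05), but with 64 cells in every library its log2 fold change was 0.09. Nos3, the endothelial nitric oxide synthase, was at 81.6, 211, 129 and 161 (0.77 ± 0.24, adjusted p = 0.0144), and without HFD replicate 2 and without HFD replicate 1 its log2 fold change was 1.21 and 0.52. Klf10 was at 32.6, 109, 73.6 and 113 and rose by 1.18 ± 0.25 (adjusted p = 5.22e-05), and Thbd and Edn1 were given above. Nos3 missed the threshold in 4 of 13 alternatives, Ednrb in 3 of 13 and Klf10 in 2 of 13. Between JQF and HFD, 0 of the 17 passed, beside 1.35% of all genes.

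Of 15 basement membrane and capillary genes, 5 rose and 1 fell in HFD, beside 5.42% and 8.07% of all genes, so the number that fell is near the share over all genes. Lower in JQF than in HFD were 2, beside 0.705%. Esm1, endocan, a marker of sprouting endothelial tip cells (chromosome 13, 113209659 to 113218098, GRCm38), was at 10.1, 86.8, 76.1 and 14.77. Both HFD libraries were above NCD and JQF, with log2 fold changes of 2.80 ± 0.32 in HFD vs NCD (adjusted p = 8.04e-16) and -2.40 ± 0.35 in JQF vs HFD (adjusted p = 4.54e-09). After thinning, Esm1 UMIs were found in 1.48%, 11.7%, 7.93% and 0.885% of LSEC and in 2.75%, 0.668%, 0.663% and 0.289% of T cells, so the NCD share in LSEC did not exceed that in T cells. The 3 highest cells held 68.6% of the Esm1 UMIs in HFD replicate 1 and 13% in HFD replicate 2. Perlecan, Hspg2, was at 253, 521, 517 and 429 (0.85 ± 0.25, adjusted p = 0.00878) and the tetraspanin Cd9 at 109, 278, 291 and 190.1 (1.20 ± 0.24, adjusted p = 2.56e-05). Plvap and Cd34 were the others that rose, and Cd34 and Esm1 were the pair lower in JQF. Lamb1, the only gene that fell, had 137, 0, 0 and 6 UMIs. The collagen IV gene Col4a1, at 406, 429, 409.5 and 334, did not pass.

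**Figure D3:**
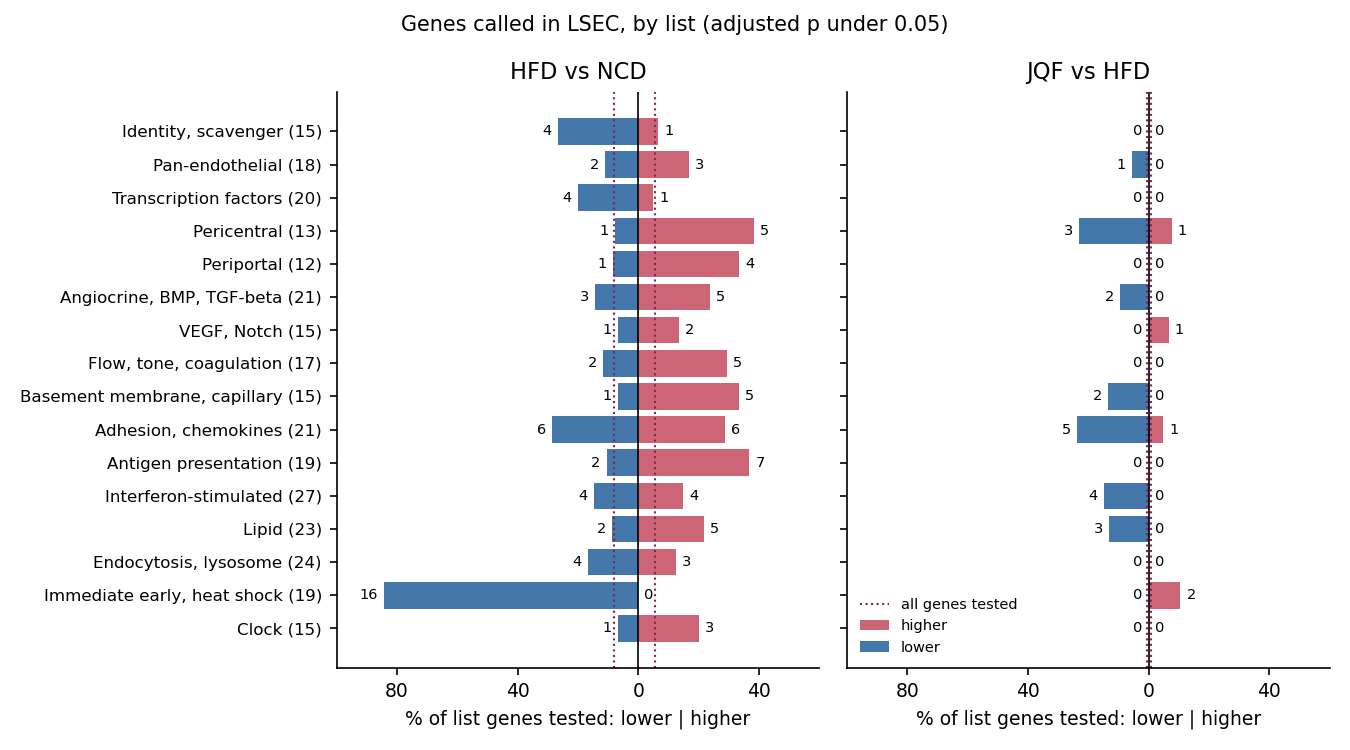
Percentage of the tested genes of each of 16 functional lists that were higher (right, red) or lower (left, blue) at an adjusted p under 0.05, with the counts beside the bars, the number tested in parentheses and dotted lines at the percentages over all 13483 genes. In HFD vs NCD, 16 of 19 immediate early and heat shock genes were lower, while 5 of 13 pericentral and 7 of 19 antigen presentation genes were higher. In JQF vs HFD, 5 of 21 adhesion and chemokine genes and 3 of 13 pericentral genes were lower.

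Of 23 lipid genes, 5 rose and 2 fell in HFD, where 5.42% of all genes were higher and 8.07% lower, so the number that fell is near the share over all genes. Lower in JQF than in HFD were 3, beside 0.705% of all genes. Fabp5, a further fatty acid binding protein, was at 77.6, 573, 505 and 320.1 with the libraries in the same order as for Fabp4 (HFD vs NCD 2.60 ± 0.27, adjusted p = 4.10e-19). Its JQF vs HFD difference of -0.71 ± 0.25 did not pass (adjusted p = 0.195). Pparg, which activates Fabp4 and Cd36, was at 17.9, 72, 39.1 and 13.2, higher in HFD (1.25 ± 0.34, adjusted p = 0.00295) and lower in JQF (-1.85 ± 0.39, adjusted p = 4.46e-04), each missed in 4 of 12 alternatives. The HFD vs NCD log2 fold change of Pparg was 0.99 without HFD replicate 1 and 1.85 without HFD replicate 2. Lpl, lipoprotein lipase, also rose, at 1.66, 9.92, 35.3 and 6.86, with 60.7% of its UMIs of HFD replicate 2 in 3 cells and a level of 509 CPM outside called cells. Scarb1 and the lysophosphatidic acid receptor Lpar6 were the 2 that fell, the latter at 115, 69.5, 78.6 and 74.1 (-0.78 ± 0.23).

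Leukocyte adhesion molecules and chemokines had 6 of 21 higher and 6 lower in HFD, beside 5.42% and 8.07% of all genes. Between JQF and HFD, 1 was higher and 5 lower, beside 0.645% and 0.705%. Cxcl10, an interferon-induced chemokine for T cells, was at 483, 141, 169 and 79.4, so that NCD was highest and JQF lowest (HFD vs NCD -1.79 ± 0.23, adjusted p = 1.15e-12, and JQF vs HFD -0.97 ± 0.26, adjusted p = 0.0183). Il1a was at 296, 67, 112 and 107 (-1.78 ± 0.23, adjusted p = 1.10e-12) and the adhesion receptor Icam1 at 289, 164, 105 and 107 (-1.40 ± 0.23, adjusted p = 1.05e-07), with all 3 high-fat diet libraries below NCD. Vcam1, at 251, 134, 216 and 112, Cxcl12, at 20.5, 0, 1.75 and 35.9, and Cxcl1, at 23.8, 27.3, 7.43 and 3.43, fell as well, although HFD replicate 1 lay above NCD for Cxcl1. The 3 highest cells held 94.9% of the Cxcl12 UMIs of JQF, the 1 gene of the list that was higher there. Among the risers, Mcam was at 84, 270.4, 193 and 133 (1.22 ± 0.24), Jam2 at 271, 608, 453 and 504 (0.75 ± 0.25) and the alarmin Il33 at 3.33, 39.7, 23.6 and 10.3 (2.89 ± 0.50). Cxcl9 did not pass in HFD vs NCD but was lower in JQF, at 352, 424, 319 and 171 (-1.06 ± 0.26, adjusted p = 0.00585). The JQF vs HFD call was lost for Cxcl10 in 4 of 13 alternatives and for Cxcl9 in 3 of 13.

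Calls of the list's CC chemokines came with uneven counts per cell. Ccl2, the monocyte attractant, was at 14.1, 44.7, 56.7 and 8.44 (1.73 ± 0.34 and -2.63 ± 0.40 in the comparisons, adjusted p = 8.40e-06 and 3.82e-08), and its 3 highest cells held 8.75, 100, 69.2 and 62.5% of its UMIs. With 64 cells in every library the JQF difference turned to 0.22. Ccl5, a T and NK cell chemokine, was at 10.9, 89.3, 58.6 and 17.4 (2.45 ± 0.33 and -1.94 ± 0.35, adjusted p = 9.63e-12 and 1.43e-05), against 1783, 3319.7, 2455 and 1855 CPM in the other kept cells and 593, 2775, 2181 and 1065 CPM outside called cells, and the 3 highest cells held 41.1, 61.1, 29.6 and 9.09% of its UMIs. Selp, given above, also rose in HFD and fell in JQF. Ccl2 missed the threshold in 3 of 12 alternatives in either comparison, and Ccl5 in 4 of 12 in JQF vs HFD.

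Of 27 interferon-stimulated genes, 4 were higher and 4 lower in HFD, beside 5.42% and 8.07% of all genes, and the median log2 fold change was -0.28 against -0.02 for all genes. Iigp1, an immunity-related GTPase, was at 1803, 385, 339.6 and 427 and Irf1, the interferon regulatory factor (chromosome 11, 53770014 to 53778374, GRCm38), at 838, 159, 164 and 223. Both were highest in NCD, above all 3 high-fat diet libraries, and fell, with log2 fold changes of -2.52 ± 0.25 (adjusted p = 2.30e-21) and -2.55 ± 0.24 (adjusted p = 9.36e-24). The RNA sensor Ifih1, at 192, 99.2, 67.2 and 67 (-1.51 ± 0.23), and the GTPase Irgm1, at 167, 89.3, 89.8 and 70.1 (-1.08 ± 0.23), fell too. Ifi44 was at 37.6, 127, 92.1 and 37.2, higher in HFD (1.27 ± 0.25, adjusted p = 1.74e-05) and lower in JQF (-1.44 ± 0.28, adjusted p = 5.65e-05). Irf7, at 13.1, 59.5, 40.4 and 17.7, was likewise higher in HFD and lower in JQF (1.63 and -1.35), and Bst2, at 258, 610.4, 524 and 499.7, and Xaf1, at 30.2, 96.8, 67.9 and 51.2, rose in HFD. In JQF vs HFD, 4 of the 27 were lower and 0 higher, beside 0.705% and 0.645% of all genes, the others being Rsad2, at 125, 114, 118 and 61.7, and Gbp3, at 40.4, 14.9, 35.7 and 11.6. Rsad2 (adjusted p = 0.0342) missed the threshold in 8 of 13 alternatives, and Ifi44 did in 3 of 13 in the same comparison.

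Promoters of interferon genes that moved in opposite directions are shown because some of either kind carry the same letters. The 9-letter pattern GAAANNGAA, the core of the interferon response element, was searched on both strands of the RefSeq promoters (GRCm38.p6, 250 bases before to 50 after the start). It was found in 17 of the 23 tested interferon genes with a promoter in the table and in 8.56% of all 32851 promoters. A gene with several promoters counted when any of them held the pattern. Of these 23 it was in 2 of the 4 that rose in HFD, 2 of the 3 that fell and 13 of the 16 that did not pass. Matches are in capitals, and overlapping matches run together. The promoters lie at chr3:151749861-151750160 for Ifi44, chr2:62646206-62646505 for Ifih1 and chr11:48871371-48871670 for Irgm1, all on the minus strand.
Ifi44: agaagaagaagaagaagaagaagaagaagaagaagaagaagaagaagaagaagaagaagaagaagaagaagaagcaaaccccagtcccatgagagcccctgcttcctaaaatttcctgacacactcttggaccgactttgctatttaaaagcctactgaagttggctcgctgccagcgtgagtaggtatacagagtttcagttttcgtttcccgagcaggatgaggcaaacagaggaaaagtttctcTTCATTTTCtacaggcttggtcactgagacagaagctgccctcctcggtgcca
Ifih1: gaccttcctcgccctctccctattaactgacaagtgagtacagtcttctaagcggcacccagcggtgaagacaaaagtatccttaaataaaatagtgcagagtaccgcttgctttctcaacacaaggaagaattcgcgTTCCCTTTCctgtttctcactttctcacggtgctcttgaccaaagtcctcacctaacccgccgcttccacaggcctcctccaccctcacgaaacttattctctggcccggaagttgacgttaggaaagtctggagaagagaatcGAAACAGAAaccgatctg
Irgm1: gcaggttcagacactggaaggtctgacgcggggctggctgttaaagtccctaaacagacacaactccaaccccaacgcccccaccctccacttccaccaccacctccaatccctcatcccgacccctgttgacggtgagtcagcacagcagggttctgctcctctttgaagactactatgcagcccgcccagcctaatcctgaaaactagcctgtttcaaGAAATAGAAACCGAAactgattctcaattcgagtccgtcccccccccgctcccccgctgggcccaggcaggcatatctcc
Ifi44, which rose in HFD, had 1 match, and Ifih1 and Irgm1, which fell, had 2 each. A match describes the letters only.

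Of 19 antigen presentation genes, 7 rose and 2 fell in HFD, beside 5.42% and 8.07% of all genes, so the number that fell is near that share. All 7 that rose belong to MHC class II, which presents peptides to CD4 T cells, or regulate it. The invariant chain Cd74 was at 54.4, 107, 639 and 316, H2-Aa at 34.7, 52.1, 319 and 181, H2-Ab1 at 33.9, 69.5, 316 and 169.5 and H2-Eb1 at 27.7, 42.2, 293 and 160.0. HFD replicate 2 was highest for each of the 4, and HFD replicate 1 lay nearer to NCD. Cd74 had a log2 fold change of 2.73 ± 0.27 (adjusted p = 1.31e-21), which became 0.81 without HFD replicate 2, and for H2-Aa 2.46 ± 0.26 became 0.43. For H2-Ab1 and H2-Eb1 the values of 2.52 and 2.66 became 0.88 and 0.45. DESeq2 called none of these 4 genes (adjusted p = 0.759 for Cd74 and H2-Ab1, 0.874 for H2-Eb1 and 0.899 for H2-Aa). The 3 highest cells held 40.1, 62.8, 22.2 and 72.5% of the Cd74 UMIs, and Cd74 outside called cells was at 736, 4131, 4475 and 2447 CPM. These levels ran with the macrophage markers given above. Under the stricter rule, which left out cells with a C1q or Ptprc UMI, all 4 calls were kept, as 0 of the 74 named HFD vs NCD calls were lost. The part of macrophage RNA in these levels was not tested. Nlrc5, the class I transactivator, at 88.3, 62, 32.2 and 30.3, and the checkpoint ligand Cd274, at 44.4, 2.48, 21 and 15.8, were the 2 that fell. Between JQF and HFD, 0 of the 19 passed, beside 1.35% of all genes.

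Among the macrophage markers themselves, 7 of the 10 tested were higher in HFD and 0 lower, beside 5.42% and 8.07% of all genes. Lyz2 was at 14.9, 29.8, 245 and 255 and Tyrobp at 9.62, 14.9, 111 and 70.1, with log2 fold changes of 3.31 ± 0.27 and 2.91 ± 0.28. Without HFD replicate 2 these became 0.84 and 0.47, and the 3 highest cells held 47.6% and 91.5% of the Lyz2 UMIs in HFD replicate 2 and JQF. The calls of Lyz2 and Tyrobp were kept under the stricter rule and lost with DESeq2. Fcer1g was at 70.5, 99.2, 179.6 and 170.3 (0.92 ± 0.24) and missed the threshold in 3 of 13 alternatives. The C1q genes were limited by the rule and stood at 2.61, 12.4, 29.1 and 7.65 for C1qa.

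Of 19 immediate early and heat shock genes, 16 were lower in HFD and 0 higher, beside 8.07% and 5.42% of all genes, and the median log2 fold change was -1.23 against -0.02 for all genes. These genes answer stimulation and heat within minutes. Egr1 was at 942, 104, 152 and 185 (-2.98 ± 0.24, adjusted p = 6.47e-32), Fosb at 534, 64.5, 158 and 178 (-2.26 ± 0.23, adjusted p = 5.05e-20) and Jun at 1215, 285, 424 and 433 (-1.92 ± 0.24, adjusted p = 3.07e-13). NCD was highest for each, and HFD replicate 1 was lowest. The heat shock proteins Hsph1, at 507, 72, 115 and 194 (-2.50 ± 0.24, adjusted p = 9.51e-24), and Hspa1a, at 647, 99.2, 213 and 209 (-2.10 ± 0.23, adjusted p = 4.10e-17), showed the same order between diets. Fosb and Hspa1a were not called by DESeq2. The log2 fold change of Fosb was -1.89 without HFD replicate 1 and -3.21 without HFD replicate 2, and that of Hspa1a, whose call was lost in 2 of 13 alternatives, -1.74 and -2.86. In JQF vs HFD, Hsph1 (0.96 ± 0.24, adjusted p = 0.00991) and Hsp90aa1, at 498, 228, 336 and 626 (1.13 ± 0.24, adjusted p = 6.23e-04), were higher, and 0 of the 19 lower, beside 0.645% and 0.705% of all genes. These calls were lost in 5 of 13 and 3 of 13 alternatives. NCD was also the library with the largest Gm42418 share and depth per cell, whose part in this result was not tested.

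Promoters of heat shock genes of this list are shown with the pair of inverted units that heat shock factors bind, GAANNTTC, which reads the same on both strands. Of the 15 tested genes of the list with a promoter in the table, 4 held it, namely Hspa1a, Hspa1b, Hsph1 and Jun, and all 4 fell in HFD, as did 10 of the 11 without it. It was in 7.86% of all 32851 promoters. A gene with several promoters counted when any of them held the pattern. Hsph1 had 2 promoters, and the printed promoter was chosen by its number of matches. The sequences are from RefSeq (GRCm38.p6), at chr17:34972107-34972406 for Hspa1a and chr5:149636266-149636565 for Hsph1, both on the minus strand, with the match in capitals.
Hspa1a: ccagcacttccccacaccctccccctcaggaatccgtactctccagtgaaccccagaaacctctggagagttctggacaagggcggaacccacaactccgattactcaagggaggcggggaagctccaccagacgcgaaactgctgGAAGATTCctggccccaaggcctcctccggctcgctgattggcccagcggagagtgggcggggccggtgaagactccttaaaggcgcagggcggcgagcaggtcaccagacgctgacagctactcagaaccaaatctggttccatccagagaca
Hsph1: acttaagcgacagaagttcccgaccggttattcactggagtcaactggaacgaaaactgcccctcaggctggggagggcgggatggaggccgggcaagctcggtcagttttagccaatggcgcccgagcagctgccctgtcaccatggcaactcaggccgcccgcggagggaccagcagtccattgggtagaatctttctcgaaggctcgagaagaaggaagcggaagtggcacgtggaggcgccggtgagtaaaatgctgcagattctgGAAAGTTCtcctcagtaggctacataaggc

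Of 15 clock genes, 3 rose in HFD, beside 5.42% of all genes, and 1 fell, near the 8.07% of all genes that did. The repressor Nr1d1 was at 9.16, 54.6, 70.7 and 79.4 (2.67 ± 0.29, adjusted p = 1.63e-17), Per1 at 19.2, 42.2, 47.2 and 28.7 (1.08 ± 0.32), the output gene Dbp at 5.92, 17.4, 19.4 and 17.9 (1.50 ± 0.46) and Cry1 at 45.6, 22.3, 23.8 and 25 (-1.13 ± 0.31). Nr1d1 in NCD was below the range of the other 3 libraries, and 0 of the 15 passed in JQF vs HFD, beside 1.35% of all genes. Of 24 endocytosis and lysosome genes, 3 rose and 4 fell, beside the same shares over all genes. Rab7, which drives late endosome fusion, was at 426, 151, 207 and 234 (-1.38 ± 0.23, adjusted p = 1.46e-07) and Lamp2 at 1212, 648, 807 and 958 (-0.91 ± 0.25, adjusted p = 0.00399, lost in 2 of 13 alternatives), and Ehd3 and Dab2 were given above. The 3 that rose, Ctsh, Laptm5 and Cd63, were at no more than 59.2 CPM in any library, and 0 of the 24 passed in JQF vs HFD.

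By size, the genes raised most in HFD were Igfbp5, Synpo, Zbtb16, Plac8, Xylt1, Fabp4, Dbn1, Crip1, Sdf2l1 and Esm1. They were chosen among calls of at least 50 CPM in both HFD libraries, with both above NCD. Zbtb16, a transcriptional repressor induced by glucocorticoid in many cells, was at 14.6, 171, 327 and 388 and rose by 3.99 ± 0.29 (adjusted p = 1.57e-40). JQF was above both HFD libraries. Igfbp5, an insulin-like growth factor binding protein, was at 2.78, 238, 85.3 and 132 (5.43 ± 0.31, adjusted p = 3.58e-66), but 3 cells held 88.5% of its UMIs in HFD replicate 1. Xylt1, which starts proteoglycan chains, was at 8.58, 186, 68.2 and 15.3 (3.47 ± 0.32, adjusted p = 2.76e-25). Without HFD replicate 1 the log2 fold changes of Igfbp5, Xylt1, Zbtb16 and Crip1 were 4.80, 2.86, 4.35 and 3.17, and without HFD replicate 2 they were 6.26, 4.28, 3.39 and 2.30. Plac8, at 5.94, 54.6, 86.3 and 36.9, and Crip1, at 12.6, 69.5, 125 and 141, had 157, 556, 679 and 418 and 332, 1453, 1117 and 1341 CPM in the other kept cells. Synpo and Dbn1, both actin-binding, were at 2.61, 67, 55.5 and 28.2 and 7.19, 91.8, 56.4 and 27.2, and Sdf2l1, an endoplasmic reticulum chaperone partner, at 6.9 in NCD, 52.1 in HFD replicate 1 and highest in JQF, at 100.5.

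The genes lowered most, among those of at least 50 CPM in NCD with both HFD libraries below it, were Trim69, Iqcn, Phkg1, Pde4c, Dcn, Gna14, Ckap2l, Polg2, Nup210l and Adam12. Trim69 (chromosome 2, 122160700 to 122179027, GRCm38) was at 309, 2.48, 4.96 and 75.1 (-6.19 ± 0.31, adjusted p = 8.98e-85) and Polg2, a subunit of the mitochondrial DNA polymerase (chromosome 11, 106768253 to 106779537), at 266, 22.3, 18.5 and 93.9 (-3.97 ± 0.26, adjusted p = 3.21e-48). JQF lay between HFD and NCD for both, and also for Iqcn, at 50.2, 0, 1.46 and 11.9, Phkg1, at 56.2, 0, 2.48 and 27.2, Gna14, at 76, 0, 5.54 and 20.0, and Nup210l, at 142, 9.92, 14.7 and 30.8. Dcn, decorin of stellate cells and fibroblasts, was at 77.6, 7.44, 4.81 and 173, and 3 cells held 97.4% of its JQF UMIs. In the other kept cells Trim69 was at 90.0, 8.79, 2.34 and 8.25 CPM, again highest in NCD. The log2 fold changes of Trim69, Pde4c and Adam12 were -6.10, -4.57 and -3.23 without HFD replicate 1 and -7.12, -2.99 and -5.31 without HFD replicate 2. Iqcn, Phkg1 and Gna14 had 0 UMIs in HFD replicate 1, so no fold is given for them from that library alone. Trim69 and Adam12 had 1 UMI there and Pde4c 5.

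Of these 10 lowered genes, 8 overlap or lie at most 100000 bases behind a gene of at least 100 CPM in NCD on the same strand, as do 2 of the 10 raised most, 13.2% of all tested genes and 16.4% of all lower calls. Trim69 starts 7616 bases downstream of the end of B2m, the MHC class I light chain, which was at 2512, 3280.0, 3482 and 2913 CPM. Polg2 lies 817 bases downstream of Ddx5, Iqcn 2840 bases downstream of Jund, Ckap2l 2397 bases downstream of Il1a and Nup210l 3229 bases downstream of Tpm3, while Phkg1 overlaps Chchd2. Pde4c and Gna14 lie 23103 and 48298 bases behind Jund and Gnaq. Of the 10, 6 had a gene of at least 100 CPM in NCD overlapping or ending at most 10000 bases upstream on the same strand, as did 1 of the 10 raised most and 3.59% of 13470 tested genes. Over all calls the share was 7.27% of 1087 lower genes and 2.33% of 731 higher genes. Whether reads past a gene's end or in introns entered these counts is not settled by the sources used here, so levels of such neighbours may share reads, and this was not tested.

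JQF was compared with HFD to ask which LSEC genes differ when the formula is added to the diet. The genes lower in JQF that were named by size were Xylt1, Esm1, Ccn2, Ccl5, Adamts9, Entpd1, Lepr, Ifi44, Angpt2 and Fabp4. Ccn2, a matricellular target of YAP and TGF-beta, was at 53.8, 223, 162 and 42.2 (-2.10 ± 0.26, adjusted p = 2.33e-12). The leptin receptor Lepr was at 73.7, 273, 170.2 and 72 (-1.51 ± 0.26, adjusted p = 1.59e-06), and Entpd1, which hydrolyses extracellular ATP, at 16.2, 69.5, 61.4 and 21.9 (-1.52 ± 0.34, adjusted p = 0.00147). JQF lay near NCD for these 3 genes. A level below both HFD libraries was a condition for naming genes lower in JQF by size, so it is no separate result. Adamts9, a matrix protease, was at 175, 379.6, 131 and 68.3 (-1.70 ± 0.26, adjusted p = 5.42e-08), with HFD replicate 1 well above replicate 2, and the log2 fold change without HFD replicate 1 was -0.95. Without HFD replicate 2 it was -2.45. Xylt1 was -2.79 ± 0.34 (adjusted p = 1.20e-13), missed the threshold in 3 of 13 alternatives (adjusted p = 0.98 with DESeq2) and was -2.17 without HFD replicate 1 and -3.58 without HFD replicate 2. The calls of Adamts9 and Entpd1 were lost in 4 of 13 and 4 of 12 alternatives, and that of Lepr in 2 of 13. The HFD libraries enter both comparisons, so a gene's HFD vs NCD and JQF vs HFD values are not independent of each other.

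Higher in JQF by size were Dcn, Trim69, Polg2, Ifitm10, Ltc4s, Hspb1, Ttr, Hbegf, Taf13 and Ecm1, all chosen with JQF above both HFD libraries. The small heat shock protein Hspb1 was at 54.1, 112, 123 and 340.1 and JQF was above every other library (1.54 ± 0.23, adjusted p = 1.82e-08). Ltc4s, leukotriene C4 synthase, was at 62.1, 12.4, 28.7 and 85.4 (1.75 ± 0.28, adjusted p = 1.07e-07), and the growth factor Hbegf at 173, 22.3, 30.6 and 79.4 (1.47 ± 0.26, adjusted p = 4.47e-06). Ifitm10, which lies 2157 bases downstream of Ctsd, was at 84.9, 17.4, 16 and 78.3 (2.29 ± 0.29), and Taf13 at 75.1, 22.3, 21.1 and 56.4 (1.42 ± 0.30). Ecm1, at 69.2, 64.5, 40.4 and 120.0 (1.42 ± 0.25), had 53.2% of its JQF UMIs in 3 cells, and after removal of the highest doublet scores its log2 fold change was 0.31, and that of Dcn 0.94. The hepatocyte gene Ttr, at 24.5, 34.7, 35.1 and 96.5, was at 1188, 614, 794 and 2487 CPM outside called cells. Its JQF vs HFD log2 fold change went from 1.49 to -0.060 with 64 cells in every library, and it missed the threshold in 5 of 12 alternatives. Alternatives lost the call of Ecm1 in 6 of 13, Hbegf in 4 of 13, Taf13 in 4 of 12, Ltc4s in 3 of 12 and Dcn in 2 of 12. The log2 fold change of Ltc4s was 1.56 without HFD replicate 1 and 2.80 without HFD replicate 2, and that of Trim69 3.91 and 4.94. With LSEC and T cells in 1 fit, 16 genes passed in JQF vs HFD, and 1 passed when that fit left out HFD replicate 1 of LSEC.

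The change in LSEC was set against that in T cells of the same libraries to ask for which genes it differed from that in T cells. T cells were kept cells with at least 2 Cd3 UMIs and without the endothelial and sinusoidal genes, and numbered 367, 1968, 1842 and 3481. The difference of the changes passed for 470 of 16193 genes, or 2.9%, in a fit that did not pair the LSEC and T cell sums of a library. With the library as a block, 1144 genes passed, the 470 among them. The makeup of the T cells themselves differed between libraries. Fabp5 rose in LSEC and had a log2 fold change of 0.41 in T cells (difference 2.19 ± 0.42, adjusted p = 0.0156). Irf1, Iigp1 and Cxcl10 fell in LSEC, while in T cells their log2 fold changes were -0.36, 0.27 and 1.60 (differences -2.18 ± 0.32, -2.78 ± 0.39 and -3.38 ± 0.52, adjusted p = 0.00414, 0.00363 and 0.00553). Egr1 and Hsph1 gave -0.03 and -0.34 in T cells (differences -2.94 ± 0.47 and -2.15 ± 0.42). For Esm1 and Zbtb16 a large part of the difference was a lower level in T cells. Esm1 was at 33.2, 3.94, 4.13 and 1.71 CPM in T cells and Zbtb16 at 609, 86.8, 69.1 and 324, log2 fold changes of -3.05 and -2.97 in HFD vs NCD, beside 2.80 and 3.99 in LSEC. Xylt1 had a log2 fold change of -0.20 in T cells. For Fabp4 and Lyve1 the difference did not pass (adjusted p = 0.436 and 0.307). T cells had Fabp4 at only 1.87, 0.923, 5.21 and 1.24 CPM, and at most 0.111% of thinned T cells had a Lyve1 UMI. At such levels the test cannot tell a shared change from one in LSEC alone. The count of 470 fell when the LSEC sum of either HFD replicate was left out and its T cell sum kept. That fit has no replicates among the LSEC sums, so its counts are not given.

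**Figure D4:**
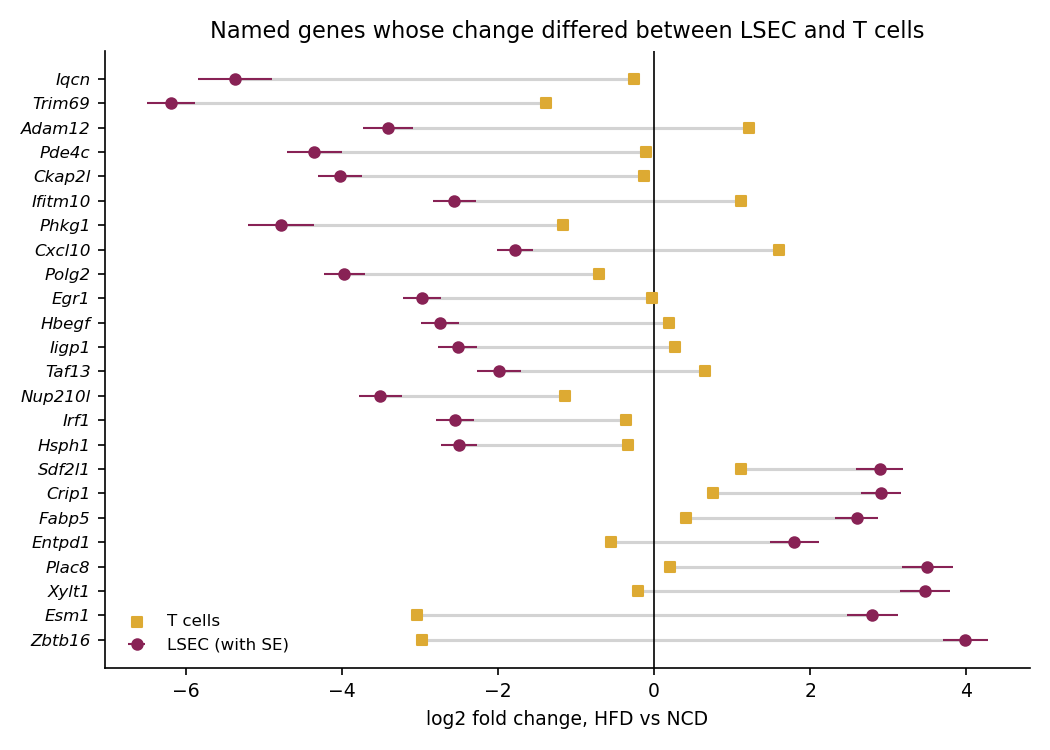
Log2 fold change, HFD vs NCD, of the 24 named genes whose change differed between LSEC (circles, bars are standard errors) and T cells (squares), from the most negative difference at the top to the most positive at the bottom. LSEC lie left of T cells for 16 genes, Iqcn to Hsph1, and right of them for 8, Sdf2l1 to Zbtb16.

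The other marker lists were counted in the same way, beside 5.42% of all genes higher and 8.07% lower in HFD vs NCD. There, 0 of 13 hepatocyte markers were higher and 4 lower, 1 of 8 tested T and NK cell markers higher and 1 lower, 2 of 2 B cell markers higher, 2 of 6 neutrophil markers higher, 0 of 7 stellate markers higher and 2 lower, 4 of 7 epithelial markers higher, and 4 of 10 large-vessel markers higher and 1 lower. Clu, of the large-vessel list, was at 19.9, 22.3, 140.1 and 169 and turned from 2.20 to -0.20 when the highest doublet scores were removed, and was 2.68 without HFD replicate 1 and 0.01 without HFD replicate 2, with the call lost in 2 of 13 alternatives. Fbln2, an elastic fibre gene of larger vessels, was at 0.995, 54.6, 35.9 and 7.12 (5.19 ± 0.51 in HFD and -2.52 ± 0.49 in JQF vs HFD), and 3 cells held 72.7% of it in HFD replicate 1. In JQF vs HFD, where 0.645% of all genes were higher and 0.705% lower, 2 stellate markers, Dcn and Reln, and the hepatocyte gene Ttr were higher, Ccl5 and 2 large-vessel genes, Fbln2 and Selp, were lower, and 0 macrophage, B cell, neutrophil or epithelial markers passed.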

How the data were processed

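Single-cell 3' libraries of 4 mouse livers were used (NCD 1, HFD 2, JQF 1). The authors deposited raw UMI counts per gene and barcode, called and uncalled, with lists of barcodes and gene identifiers. The sample labels and methods name Cell Ranger 6.0.1, while the headers of the filtered and raw matrices carry 7.0.0 and 4. Whether introns were counted is not settled by these sources. No column lay outside the 4 libraries.

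Kept cells had at least 500 genes and at most 20% mitochondrial UMIs. No doublets were removed in the main analysis. The rule gave 4.67% to 5.47% of LSEC among the barcodes with the highest Scrublet scores (scanpy 1.11.5), counting 0.8% of barcodes per 1000 called. Counts were summed per library and tested with edgeR 4.0.16 in R 4.3.3 (TMM, filterByExpr, quasi-likelihood F test, Benjamini-Hochberg, threshold 0.05) over all genes tested, with all 4 libraries in 1 fit. The common dispersion was 0.0237, with 1 residual degree of freedom and infinite prior degrees of freedom, so single genes had no spread of their own. The LSEC and T cell comparison used an interaction term in a fit of 8 sums, LSEC and T cells of each library, without a term for the library. Both sums of a library come from 1 liver, so a fit with the library as a block (1 residual degree of freedom) was added after seeing the data. Levels are CPM of the summed LSEC. Shares carry exact Clopper-Pearson 95% intervals, which cover counting error only.

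The members, the 24 gene lists and the tests were chosen with earlier results of these data known. Named were the 10 genes higher and the 10 lower by fold among calls of at least 50 CPM in every library of the higher group, with both HFD libraries on the same side, excluding genes of the choice of cells, mitochondrial genes and predicted models, and up to 4 calls per list and comparison. Other list members given by value were chosen after their values were seen. Alternatives were DESeq2 1.42.0, library totals, other low-count filters, a rule on cells thinned to 2000 UMIs, a stricter rule, at most 10% mitochondrial UMIs, removal of the highest doublet scores, 64 LSEC per library, and leaving out each HFD library. In the T cell comparison only the LSEC sum of that library was left out. Leaving ribosomal, mitochondrial and nuclear RNA out of the totals, and fitting LSEC and T cells together with and without the LSEC of HFD replicate 1, were chosen after seeing the data. Coordinates are from GENCODE M21 (GRCm38), matched by identifier for 32158 of 32285 genes.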

Additional observations from a re-analysis of the deposited data

Results flagged for a closer look

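For 24 named genes the HFD vs NCD change in LSEC differed from that in T cells of the same libraries by the edgeR interaction test (adjusted p under 0.05). The values below are log2 fold changes in LSEC minus those in T cells. The difference was negative for Iqcn (-5.10), Trim69 (-4.79), Adam12 (-4.61), Pde4c (-4.21), Ckap2l (-3.87), Ifitm10 (-3.66), Phkg1 (-3.61) and Polg2 (-3.24). It was also negative for the chemokine Cxcl10 (-3.38), the early response factor Egr1 (-2.94), the growth factor Hbegf (-2.92), the interferon-induced genes Iigp1 (-2.78) and Irf1 (-2.18), Taf13 (-2.62), Nup210l (-2.34) and the heat shock gene Hsph1 (-2.15). It was positive for Sdf2l1 (1.80), Crip1 (2.15), the fatty acid binding protein Fabp5 (2.19), Entpd1 (2.37), Plac8 (3.34), Xylt1 (3.64), the tip cell gene Esm1 (5.86) and Zbtb16 (6.97). In T cells alone the log2 fold changes of Xylt1, Esm1 and Zbtb16 were -0.20, -3.05 and -2.97, so the differences of Esm1 and Zbtb16 include a lower level in HFD T cells. Some genes had few UMIs in T cells. In NCD, HFD replicate 1 and HFD replicate 2, Iqcn was at 2.34, 2.59 and 1.30 CPM there. Pde4c was at 1.87, 2.65 and 0.796 CPM and Phkg1 at 6.32, 3.94 and 1.67 CPM, while Polg2 was at 80.9, 54.4 and 45.0 CPM. The test did not pair the sums of a library, and with the library as a block all 24 kept direction and passed. The makeup of the T cells differed between libraries, and its part in these differences was not tested. No group had the 4 libraries that a check for single outlying samples needs.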

How the results depend on the processing

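In the main analysis the number of HFD vs NCD genes called was 1819. It moved by over 1.5 times to 417 with DESeq2, 958 with genes of a mean of at least 50 CPM, 834 with 64 LSEC per library and 971 with T cells in the fit and without the LSEC of HFD replicate 1. The number of JQF vs HFD genes called was 182 and moved to 18, 29, 85 and 1 under the same alternatives and to 16 with T cells in the fit. The count for the LSEC and T cell difference was 470 and moved to 209 with DESeq2, 720 with library totals, 1053 without a low-count filter, 206 with genes of at least 50 CPM and 46 with equal numbers of cells, and ranged from 5 to 237 without HFD replicate 2 or replicate 1. Fewer genes entered the 50 CPM filter and fewer cells the equal-number setting, and the other causes were not tested. Of the named genes, 3 turned direction: Clu to -0.20 in HFD vs NCD without the highest doublet scores, and Ttr to -0.060 and Ccl2 to 0.22 in JQF vs HFD with 64 LSEC per library. Of 74 named calls in HFD vs NCD, 32 kept direction and call in every alternative that tested them, and of 31 in JQF vs HFD, 0 did. Without HFD replicate 1 or 2, both comparisons of LSEC groups had no residual degree of freedom and gave fold changes with no test.

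LSEC shares under the stricter rule were 46.1%, 0.752%, 4.73% and 4.20%, and the rule on thinned cells gave 62.3% in NCD. Pericentral shares in NCD, HFD replicate 1, HFD replicate 2 and JQF were 89.3%, 90.6%, 83.6% and 92.8% unthinned and 81.7%, 92.2%, 83.6% and 91.5% at 4000 UMIs. Periportal shares were 92.4%, 90.6%, 92.2% and 96.4% unthinned and 87.5%, 88.2%, 91.2% and 93.3% at 4000 UMIs. The LSEC and T cell sums pair by library, and with the library as a block the count for their difference moved from 470 to 1144 and all 470 passed. For the comparisons of LSEC groups no paired analysis was possible, because neither the labels nor the methods match libraries across groups. The 64 LSEC of HFD replicate 1 limit what can be seen in genes of low level, and NCD and JQF had 1 library each.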
